A study of Mus musculus with 12 samples.

Results

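The genes described here are 10 chemokines and cytokines that hepatic stellate cell cultures are known to make or receive: Ccl2, Ccl5, Ccl7, Cxcl1, Cxcl2, Cxcl5, Cxcl12, Il6, Csf1 and Il1b. They were found by gene symbol in the annotation of the array's probes. Of the 10, 9 had probes under their symbol, 15 probes in all among the 45281 on the array, and Cxcl5 had none and was not analysed. Each gene is represented by its probe with the highest mean, and these 9 genes are among 13617 tested.

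Stellate cells are the vitamin A-storing pericytes of the liver, which become contractile, matrix-producing myofibroblasts after injury. Chemokines are small secreted proteins that attract leukocytes through G protein-coupled receptors: those of the CC family here draw mainly monocytes and T cells, and Cxcl1, Cxcl2 and Cxcl5 draw neutrophils through Cxcr2. Many of them, with Il6 and Il1b, are induced through NF-κB after Toll-like receptor or interleukin-1 signalling, and PDGF-B acts on stellate cells through the receptor tyrosine kinase encoded by Pdgfrb.

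Stellate cells isolated from mouse liver and cultured gave RNA for 12 Illumina arrays of 1 colour. All mice carried a floxed Pdgfrb gene (fl/fl, on the 129S4/SvJae background). Those called wild type lacked Cre, and those called knockout carried a Cre transgene, from an FVB line, that the GFAP promoter drives, so deletion is limited to cells in which that promoter was active. After culture with fetal bovine serum the cells received either PDGF-B (10 ng/ml) or its albumin vehicle, without serum. The labels give neither the age of the mice nor how long the ligand was present. The 4 groups, wild type and knockout each with vehicle and with PDGF-B, hold 3 arrays each. Sample titles carry 6 codes, each shared by 1 vehicle and 1 PDGF-B array of the same genotype: P11, P393 and P530 are wild type, and P338, P522 and P524 knockout. A code is taken as 1 preparation of cells. No label defines it as an animal, a pool or a culture, so the p-values below describe spread among these arrays, which may be partly technical.

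Values are normalized log2 intensities, on which a difference of 1 is a 2-fold change, and levels of different probes are not compared. Median intensity before normalization ran from 86.2 to 96.2 over the arrays, and 46.8% to 54.9% of probes were above background, estimated from each array's own values. The number of arrays limits the precision. Pdgfrb, the targeted gene, had preparation means of 6.75 (P11), 6.85 (P393) and 7.70 (P530) in wild type and 6.47 (P338), 7.67 (P522) and 7.07 (P524) in knockout, and so the genotypes overlapped, with the lowest value in a knockout preparation. Knockout differed from wild type by 0.04 ± 0.42 without PDGF-B and -0.10 ± 0.42 with it (SE, n = 3 a group). The sources used here do not place its probe inside or outside the deleted part, so these values do not check the labels, and "knockout" below means labelled as such.

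Marker lists described what the cultures held. Of 20 stellate and myofibroblast markers 18 were tested and 12 were above background on all arrays, Acta2, Dcn and Timp1 among them. Lrat and Rgs5 were at background (above it on fewer than 3 arrays) and Gfap was above it on 3 arrays. Of 19 macrophage and Kupffer cell markers 16 were tested and 14 were above background on all arrays. The summed intensity of these 16 was 43839 to 47721 in wild type with vehicle, 39636 to 48829 in wild type with PDGF-B, 26246 to 49057 in knockout with vehicle and 26853 to 49473 in knockout with PDGF-B. The low ends in knockout are both P524. The 9 tested mesothelial markers, averaged over the arrays of a preparation, summed to 2436 in P522 and to 7728 to 17003 in the other preparations. Of 10 hepatocyte markers 4 were tested: Alb, Apoa1 and Cyp2e1 were at background, while Hnf4a was above it on all arrays and Apob measured 7.19 in P530 and 5.88 to 6.17 in the others. Of 10 neutrophil markers 6 were tested: S100a9 and Retnlg were at background, while S100a8 and Csf3r were above it on all arrays. S100a8 measured 7.92 in P522, 7.11 in P11 and 6.13 to 6.68 in the others, and Csf3r 6.47 in P524 and 7.19 to 7.75 in the others. Of 12 lymphocyte and natural killer cell markers 4 were tested, none above background on all arrays: Cd3d, Cd8a and Nkg7 were at background, and Cd3e was highest in P524 at 6.51 against 5.90 to 6.22. Since these are bulk cultures, fewer cells of a type and less RNA per cell cannot be told apart, and levels of a secreted factor cannot be assigned to stellate cells or macrophages.

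**Figure D1:**
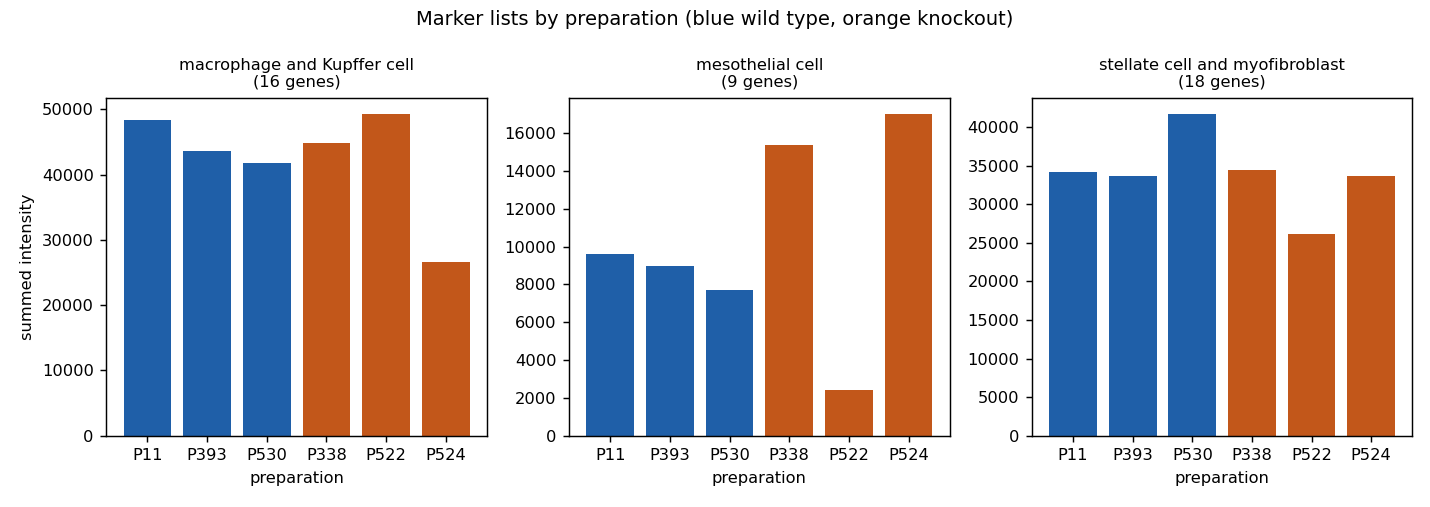
Summed normalized intensity (vertical axis) of the macrophage, mesothelial and stellate marker lists in each preparation, as the mean of its vehicle and PDGF-B arrays (blue wild type, orange knockout). The macrophage sum is lowest in P524 at 26549, and the mesothelial sum is lowest in P522 at 2436.

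The first question was whether PDGF-B or the genotype moved these genes. In none of the 6 comparisons did any of the 9 genes pass an adjusted p of 0.05 (limma, Benjamini-Hochberg over all genes tested). The background was almost as empty: PDGF-B called 0% of genes in wild-type cells, 0% in knockout cells and 0% averaged over genotypes, and 0% showed a genotype-dependent response. Knockout against wild type called 0.00734% of genes without PDGF-B and 0.0147% with it, which are Cd300ld and, with PDGF-B, also Twistnb. At an unadjusted p under 0.05, the limma fit of group means, which does not pair the arrays, listed 85 genes for PDGF-B in wild-type cells, 145 in knockout cells, 127 averaged over genotypes, 87 for the genotype-dependent response, 308 between genotypes without PDGF-B and 202 with it, and 0 of the 9 genes were among them in any comparison. With the preparation as a block, the 9 genes had 1 below that p in wild type (Il1b) and 1 in knockout (Csf1). There were 3 averaged over genotypes (Csf1, Cxcl12 and Il1b) and 2 for the genotype dependence (Csf1 and Il1b). Of all 13617 genes, the blocked fit listed 641 in wild type, 846 in knockout, 861 averaged and 611 for the genotype dependence. None of the 9 passed the adjusted p in it.

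The largest differences among the 9 lay between the genotypes without PDGF-B. Cxcl1 was lower in knockout by -0.60 ± 0.51 (SE, n = 3 a group; 95% interval -1.73 to 0.54), and Il6 differed by -0.59 ± 0.33 (-1.33 to 0.14). Cxcl12 differed by -0.47 ± 0.45 and Il1b by -0.40 ± 0.49. Of the 9 genes 8 had a lower mean in knockout without PDGF-B, with a median difference of -0.25, where the median over all genes was 0.01. Of all genes 53.5% were higher in knockout. Among the 8, the differences of Ccl5, Ccl7 and Ccl2 were only -0.01, -0.01 and -0.07. The knockout and wild-type values overlapped for each of the 9. Single preparations carried much of these differences: without P11 that of Cxcl1 was -0.01 and that of Il1b 0.13, and without P530 that of Il6 was -0.17. The 95% intervals of Cxcl1, Il6, Cxcl12, Il1b and Csf1 reach below -1, so they include a 2-fold lower level in knockout as well as no difference. With PDGF-B, 6 of the 9 were lower in knockout, where 54.4% of all genes were higher. The differences ran from -0.45 ± 0.51 for Cxcl1 to 0.17 ± 0.41 for Ccl7.

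**Figure D2:**
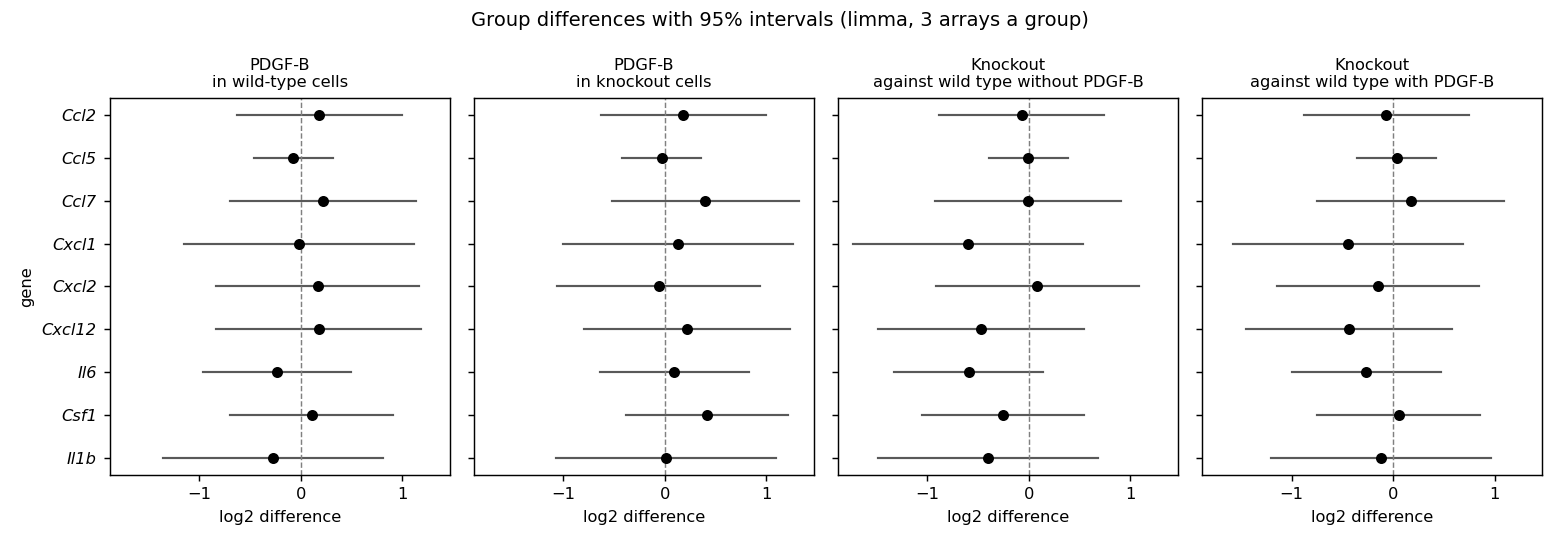
Log2 differences between groups (points, horizontal axis) with 95% intervals from limma (lines) for 9 genes in 4 comparisons, 3 arrays a group. The intervals come from the fit of group means, which does not pair the arrays of a preparation. In that fit every interval crosses 0, and the point farthest from 0 is Cxcl1 in knockout against wild type without PDGF-B, at -0.60. With the preparation as a block, the SE of the PDGF-B difference was 0.09 for Csf1 in knockout and 0.08 for Il1b in wild type, against 0.36 and 0.49 here.

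What separated the arrays was the preparation. A test within genotypes asked whether the 3 preparations of a genotype had equal levels, against the spread of their PDGF-B changes (limma F test, Benjamini-Hochberg over all genes). It called 7 of the 9 genes, where 44.6% of all genes tested were called, so that preparations differed widely in the whole transcriptome. The exceptions were Ccl2 (adjusted p = 0.0984) and Ccl7 (adjusted p = 0.0834). Preparations of one genotype held a median of 77.7% of the sum of squares of the 9 genes, against 64.1% over all genes. The median range of the 6 preparation means was 1.24 for the 9 genes and 0.32 over all genes. All genes here include those above background on as few as 3 arrays, and no comparison at like intensity was made. Animal, isolation, cell makeup and array position cannot be told apart within a code.

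**Figure D3:**
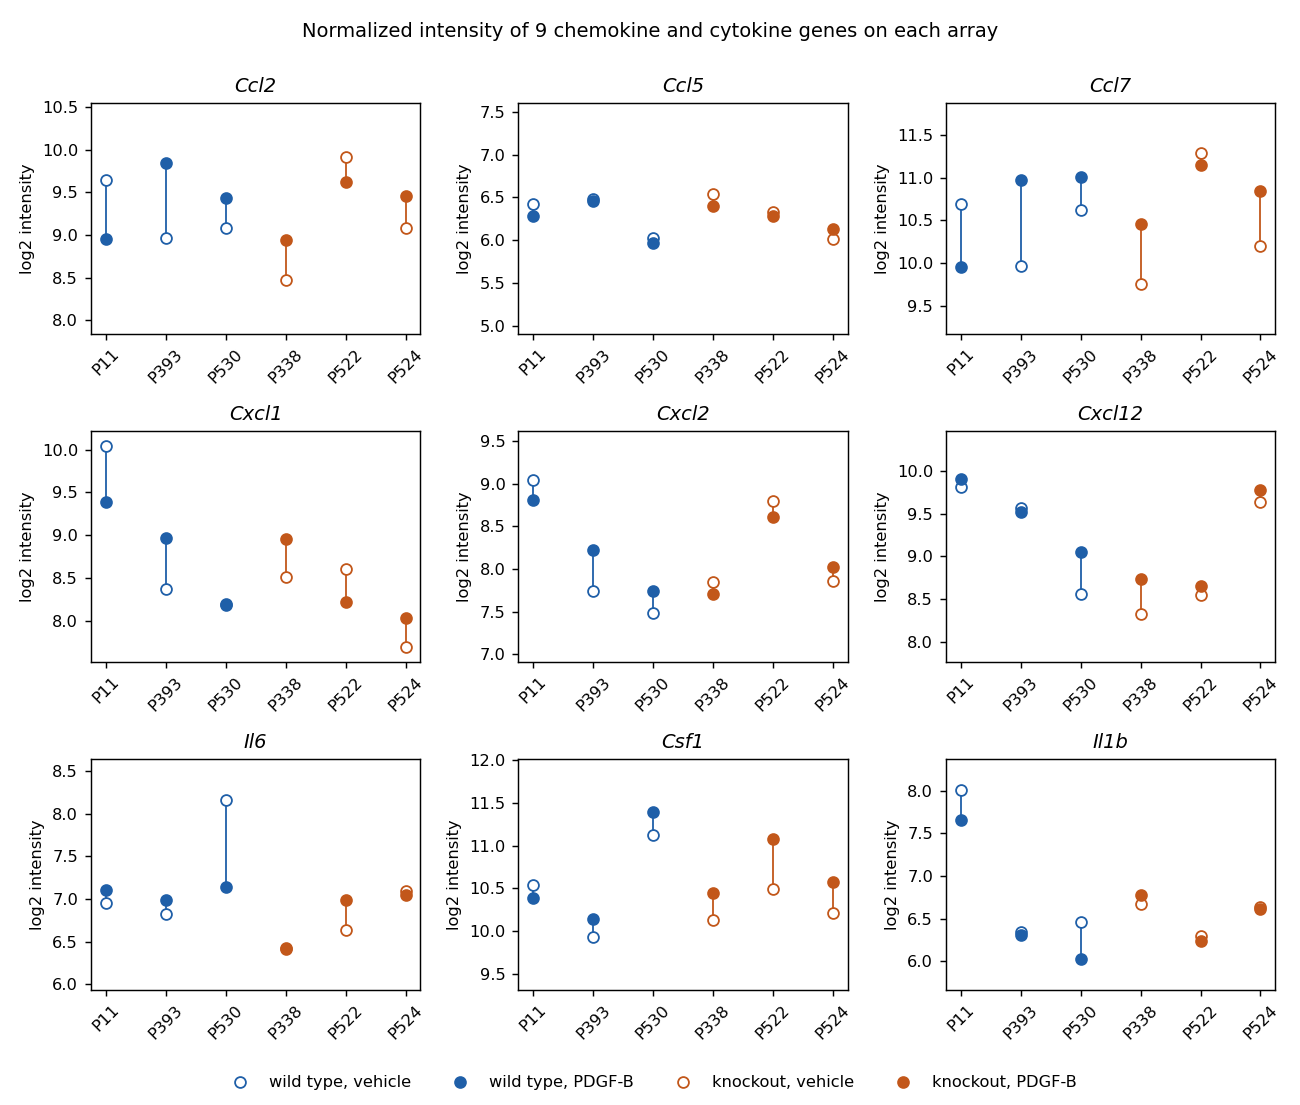
Normalized log2 intensity (vertical axis, the same span of 2.7 in each panel) of 9 genes by preparation, with open circles for vehicle and filled circles for PDGF-B, in blue for wild type and orange for knockout. Lines join the arrays of a preparation: P11 stands apart for Il1b and P530 for Csf1, while for Ccl2 and Ccl7 the joined arrays differ by up to 0.89 and 1.0.

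Ccl2 and Ccl7 encode the monocyte chemoattractant proteins 1 and 3, both ligands of the receptor Ccr2 on inflammatory monocytes, and the RefSeq table of GRCm38.p6 lists them as neighbours on chromosome 11. Ccl2 measured 9.64 in P11, 8.96 in P393 and 9.08 in P530 with vehicle, and 8.96, 9.84 and 9.43 with PDGF-B. In knockout it measured 8.48 in P338, 9.91 in P522 and 9.08 in P524 with vehicle, and 8.94, 9.62 and 9.46 with PDGF-B. The change with PDGF-B was therefore positive in P393 (0.89), P338 (0.46), P524 (0.38) and P530 (0.35) and negative in P11 (-0.69) and P522 (-0.29), so each genotype held both signs. Ccl7 measured 10.69, 9.97 and 10.62 in P11, P393 and P530 with vehicle and 9.96, 10.97 and 11 with PDGF-B. In P338, P522 and P524 it measured 9.76, 11.29 and 10.20 with vehicle and 10.46, 11.14 and 10.85 with PDGF-B. Its changes ran from -0.73 in P11 to 1.0 in P393, with the same sign as for Ccl2 in all 6 preparations. Averaged over preparations, the PDGF-B differences were 0.18 ± 0.36 for Ccl2 in either genotype, and for Ccl7 0.22 ± 0.41 in wild type and 0.40 ± 0.41 in knockout (SE, n = 3 a group). P11 was also left out, a choice made after its values were seen, in the limma fit with the preparation as a block. The wild-type differences were then 0.62 ± 0.16 for Ccl2 and 0.69 ± 0.18 for Ccl7 (adjusted p = 0.0906 and 0.0905). P11 had the lowest change of both genes, so these values are not independent of that choice. Only P393 and P530 remained in wild type. The receptor gene Ccr2 was at background.

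Cxcl1 (KC) and Cxcl2 (MIP-2) are the mouse ligands of Cxcr2 that recruit neutrophils, and they too are neighbours, on chromosome 5. Cxcl1 measured 10.04 in P11, 8.37 in P393 and 8.19 in P530 with vehicle, and 9.39, 8.97 and 8.19 with PDGF-B. In P338, P522 and P524 it measured 8.51, 8.60 and 7.69 with vehicle and 8.95, 8.21 and 8.03 with PDGF-B. The P11 arrays were the highest, with a preparation mean of 9.72 against 8.73 or less in the others (F test, adjusted p = 0.0024). Cxcl2 measured 9.04, 7.74 and 7.49 in P11, P393 and P530 with vehicle and 8.80, 8.23 and 7.75 with PDGF-B. In P338, P522 and P524 it measured 7.85, 8.80 and 7.86 with vehicle and 7.70, 8.61 and 8.02 with PDGF-B. Cxcl2 was high in P11 (mean 8.92) and in P522 (mean 8.71), 1 preparation of each genotype, and 7.98 or lower in the other 4 (adjusted p = 0.000101). The preparations with high Cxcl2 also had the highest levels of Nfkbia, the NF-κB-induced inhibitor of NF-κB, at 9.40 in P11 and 9.24 in P522 against 7.99 to 8.83. The neutrophil marker S100a8, also made by monocytes, was highest in the same preparations, at 7.11 in P11 and 7.92 in P522, and its part in the Cxcl2 levels was not tested. Cxcr1 and Cxcr2 were at background, as was the neighbouring chemokine Cxcl3.

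The promoters of Cxcl1 and Cxcl2 are shown because these neighbouring genes shared their high preparation, and that of Il1b because it was highest in the same one. They are the 250 bases before and the 50 from the RefSeq transcription start in GRCm38.p6. Capitals mark matches on either strand to the κB pattern GGGNNNNNCC, overlapping matches merged, and to the TATA box TATAAA. The windows are chr5:90890995-90891294 (plus strand), chr5:90903649-90903948 (plus strand) and chr2:129371090-129371389 (minus strand).
Cxcl1: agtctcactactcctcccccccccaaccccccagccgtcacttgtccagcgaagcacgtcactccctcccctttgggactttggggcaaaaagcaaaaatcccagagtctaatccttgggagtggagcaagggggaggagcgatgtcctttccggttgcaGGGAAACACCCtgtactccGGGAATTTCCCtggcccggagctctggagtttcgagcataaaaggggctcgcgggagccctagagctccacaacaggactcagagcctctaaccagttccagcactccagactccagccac
Cxcl2: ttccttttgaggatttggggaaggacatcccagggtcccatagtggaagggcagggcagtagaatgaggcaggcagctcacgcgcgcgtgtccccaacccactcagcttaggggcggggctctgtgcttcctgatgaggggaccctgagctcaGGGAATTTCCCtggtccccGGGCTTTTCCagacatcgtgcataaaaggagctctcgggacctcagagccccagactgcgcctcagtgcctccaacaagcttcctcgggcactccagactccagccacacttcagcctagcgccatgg
Il1b: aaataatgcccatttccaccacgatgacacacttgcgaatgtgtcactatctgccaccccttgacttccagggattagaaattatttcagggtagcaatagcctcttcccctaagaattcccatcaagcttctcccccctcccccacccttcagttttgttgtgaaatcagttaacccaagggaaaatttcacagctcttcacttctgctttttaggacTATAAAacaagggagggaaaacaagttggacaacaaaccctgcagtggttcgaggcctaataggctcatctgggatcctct
The same κB letters, GGGAATTTCC, stand at bases -71 to -62 of Cxcl1 and -97 to -88 of Cxcl2, and each promoter has 1 more match beside it. The Il1b window has no κB match and has a TATA box at -31 to -26. This κB pattern is loose, being found in 50.8% of the 32851 promoters of this length, and TATAAA in 13.6%, so a match is only a description of the letters. Promoters were also listed for Cxcl12, Il6 and Csf1, 6 of the 10 genes in all.

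Within preparations, Ccl2, Ccl7 and Cxcl1 had alike changes with PDGF-B. The order of the 6 preparations by their change with PDGF-B was the same for all 3 genes: P393, P338, P524, P530, P522 and P11, from highest to lowest. For Cxcl1 the changes were 0.60, 0.44, 0.34, 0.00, -0.38 and -0.65 in that order. Cxcl2 shared the sign of Ccl2 in 5 of 6, with P338 (-0.15) the exception. These 3 genes were picked for this likeness after all pairs of the 9 had been compared, and arrays of a preparation share their cells, so no test is attached. The spread left after preparation and ligand was larger for Ccl2 (SD 0.45), Ccl7 (0.50) and Cxcl1 (0.39) than for about 99.9% of all genes tested, whose median SD was 0.09. With 1 array per condition and preparation, a response that differs between preparations and an error of 1 array cannot be told apart. Median array intensity moved up with PDGF-B in P11, from 88.3 to 91.7, and down in P522, from 88.2 to 86.2, the preparations in which these genes were lower with PDGF-B. It moved down most in P530, from 91.6 to 87.8, where Ccl2 and Ccl7 were higher with PDGF-B. Under median scaling, which shifts the median change of all genes in P530 to -0.11, the Cxcl1 change in P530 was -0.26, and the other 17 of the 18 changes kept their sign. The order was then no longer the same for all 3 genes. Cxcl1 was lowest in P522 (-0.47, with P11 at -0.42), and Ccl2 and Ccl7 in P11.

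Other genes with alike changes, named after their values were seen, were Tnf and Nfkbia. Tnf, the macrophage cytokine that induces these chemokines through NF-κB, differed by -0.47 in P11, 0.50 in P393, 0.23 in P530, 0.05 in P338, -0.13 in P522 and 0.06 in P524. Nfkbia differed by -0.53, 0.28, 0.31, 0.14, -0.25 and -0.02 in the same preparations. The 17 tested NF-κB and C/EBP genes, Nfkbia among them, had median changes of -0.01, 0.03, -0.08, 0.09, -0.07 and 0.08 in that order. The 21 other cytokines tested, Tnf among them, had medians of -0.03 to 0.05. Any part of Tnf or NF-κB in the chemokine changes was not tested. Ccl12, a mouse Ccr2 ligand of the same chromosome 11 cluster, differed by -0.43 in P11, 0.56 in P393 and 0.34 in P338, and by -0.07 to -0.03 in the others. The 16 macrophage markers had median changes of -0.08 to 0.04 over the 6 preparations. Ccl11, an eosinophil chemoattractant gene listed next to Ccl7, differed in P522, where its change was 0.71, while in P11 it was -0.21.

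**Figure D4:**
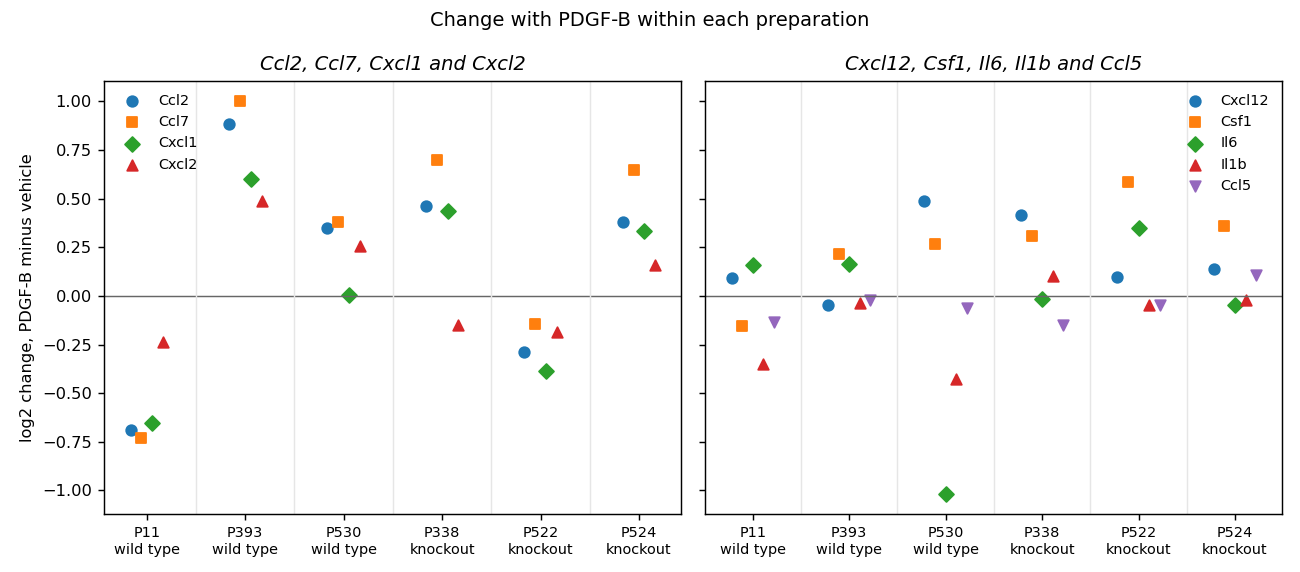
Log2 change with PDGF-B (vertical axis, PDGF-B minus vehicle) in each of the 6 preparations, with 1 symbol a gene. On the left Ccl2, Ccl7 and Cxcl1 are below 0 in P11 and P522 and at or above 0 in the other 4, and on the right Csf1 and Cxcl12 are each above 0 in 5 of 6, while the Il6 change of -1.02 in P530 stands alone.

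Csf1, macrophage colony-stimulating factor, keeps macrophages alive through the receptor Csf1r. It measured 10.54, 9.93 and 11.13 in P11, P393 and P530 with vehicle and 10.38, 10.14 and 11.39 with PDGF-B. In P338, P522 and P524 it measured 10.13, 10.49 and 10.21 with vehicle and 10.44, 11.08 and 10.57 with PDGF-B. PDGF-B arrays were higher in 5 of 6 pairs, by 0.21 to 0.58, and the change in P11 was -0.15. The difference was 0.42 ± 0.36 in knockout (95% interval -0.38 to 1.22) and 0.11 ± 0.36 in wild type, and the genotype dependence was 0.31 ± 0.51. With the preparation as a block, which compares each PDGF-B array with its own vehicle array, the SE in knockout was 0.09 and the unadjusted p was 0.000826, and over all genes it was not called (adjusted p = 0.634). In the same fit the genotype dependence had an SE of 0.13 and an unadjusted p of 0.0344 (adjusted p = 0.999). Leaving out P11 as well, a choice made after its values were seen, called Csf1 in knockout (0.42 ± 0.07, adjusted p = 0.04, where 0.162% of genes were called) and averaged over genotypes (0.33 ± 0.05, adjusted p = 0.0132, where 1.66% were called). In that averaged fit Ccl7 was called too (0.55 ± 0.12, adjusted p = 0.0416). In wild type it called none of the 9, with 1.09% of all genes called. P11 is the preparation in which both genes went the other way, so these calls are not independent of that choice. Under median scaling Csf1 was higher with PDGF-B in 6 of 6 pairs. Preparations differed in Csf1 by up to 1.22 (P530 at 11.26 and P393 at 10.04, F test, adjusted p = 5.66e-05). The means of P338, P524 and P11 lay 0.11 and 0.07 apart in that order. The SD left between single arrays after preparation and ligand was 0.14.

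Csf1r was above background on all arrays and measured 9.99 in P524, the preparation with the lowest macrophage sum, and 10.40 to 11.47 in the others (adjusted p = 0.00018). Its highest level was in P393, which had the lowest Csf1 level.

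Cxcl12 (SDF-1) binds Cxcr4 and retains leukocytes and progenitors in tissue. It measured 9.81, 9.56 and 8.56 in P11, P393 and P530 with vehicle and 9.91, 9.52 and 9.05 with PDGF-B. In P338, P522 and P524 it measured 8.32, 8.55 and 9.64 with vehicle and 8.74, 8.65 and 9.78 with PDGF-B. The 6 preparations formed a lower set, P338, P522 and P530 at means of 8.53 to 8.80, and a higher one, P393, P524 and P11 at 9.54 to 9.86, each holding both genotypes (adjusted p = 2.39e-05). PDGF-B arrays were higher in 5 of 6 pairs, by 0.09 to 0.49, with a mean difference of 0.20 ± 0.32, and in 4 of 6 under median scaling, where P522 turned to -0.03. The blocked fit gave an unadjusted p of 0.019 and an adjusted p of 0.697. Cxcr4, detected on all arrays, ran from 8.24 in P524 to 9.57 in P522, and the scavenging receptor Ackr3 was at background.

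Of the 9 genes, 3 had more than 1 probe, and Cxcl12 had 5. Of these ILMN_2658908 gave the values above, ILMN_2737302 and ILMN_3158250 were above background on all arrays, and ILMN_2746295 and ILMN_3078973 were at background and not used. The separation into a lower and a higher set rested on the first probe: with ILMN_2737302, P522 measured 8.78 and P530 8.68 beside 9.03 to 9.17 in P393, P524 and P11, and P338 remained lowest at 8.19. The sign of the PDGF-B change matched in 4 of 6 preparations for each pair of these probes, and in P11 the change was 0.09 with the first probe and -0.24 and -0.19 with the others. For Ccl7 the second probe, ILMN_2835117, matched the sign of ILMN_2771176 in 5 of 6, with P522 (-0.14 and 0.04) apart. The order of preparations differed: with the second probe P524 (10.68) and P393 (10.66) were above P522 (10.49), which was highest with the first. For Cxcl2 the second probe, ILMN_2811154, matched ILMN_2778289 in 5 of 6, with P338 (-0.15 and 0.27) apart, and it too was highest in P11 (7.82) and P522 (7.64), with 6.96 or less elsewhere.

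**Figure D5:**
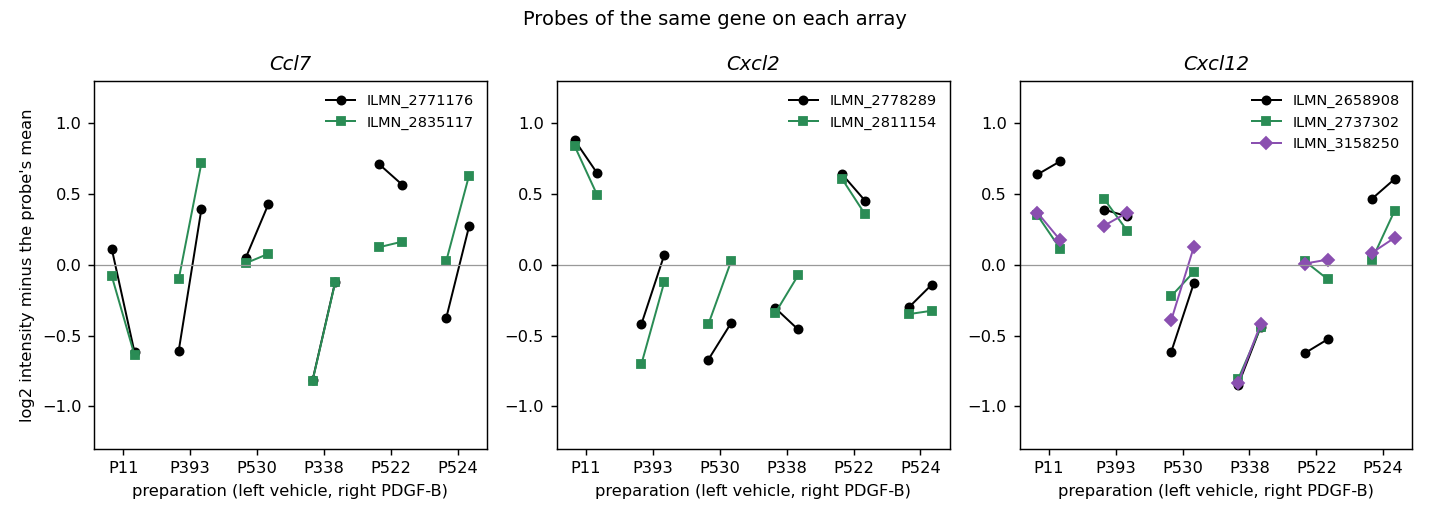
Log2 intensity minus the probe's own mean over 12 arrays (vertical axis) for the probes above background of Ccl7, Cxcl2 and Cxcl12, by preparation, with vehicle on the left and PDGF-B on the right of each joined pair. Both Cxcl2 probes are highest in P11 and P522, and their changes in P338 have opposite signs. Among the Cxcl12 probes ILMN_2658908 lies lowest in P522.

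Il6, the acute-phase cytokine that signals through Il6ra and Il6st, owed its widest difference to 1 array. It measured 6.95, 6.83 and 8.16 in P11, P393 and P530 with vehicle and 7.11, 6.99 and 7.14 with PDGF-B. In P338, P522 and P524 it measured 6.43, 6.64 and 7.09 with vehicle and 6.41, 6.99 and 7.04 with PDGF-B. The P530 vehicle array was 1.02 above the PDGF-B array of its preparation, and no other Il6 array exceeded 7.14. The preparation test called Il6 (adjusted p = 0.043), and lost it in 10 of 16 alternatives, without P338 (adjusted p = 0.121), P524 (0.118) or P522 (0.0589) among them. Il6ra ran from 6.52 in P524 to 8.28 in P522 and 7.70 or more in every preparation but P524 (adjusted p = 8.38e-07), and Il6st from 7.86 to 8.33.

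Il1b, the inflammasome-processed cytokine made chiefly by myeloid cells, had the clearest preparation difference of the 9. It measured 8.01, 6.34 and 6.46 in P11, P393 and P530 with vehicle and 7.66, 6.31 and 6.03 with PDGF-B. In P338, P522 and P524 it measured 6.68, 6.29 and 6.64 with vehicle and 6.78, 6.24 and 6.62 with PDGF-B. P11 thus had a mean of 7.83, 1.11 above the next preparation, P338 (adjusted p = 3.07e-06). The lowest were P530, P522 and P393, at 6.24, 6.27 and 6.32. PDGF-B arrays were lower in 5 of 6 pairs, the widest change being -0.43 in P530, while those in P393, P522 and P524 were -0.04, -0.05 and -0.02. Il1b was above background on all 12 arrays, but its values in P393, P530 and P522, 6.03 to 6.46, were low. They lay within the range of Ccl5 (5.96 to 6.55), which is near background. The mean difference was -0.13 ± 0.34 and, with the block, the unadjusted p was 0.0426 (adjusted p = 0.771). In wild type alone the blocked difference was -0.27 ± 0.08 (unadjusted p = 0.00652, adjusted p = 0.998), and the genotype dependence was 0.28 ± 0.11 (unadjusted p = 0.0312, adjusted p = 0.999). The macrophage markers of P11 summed to 48275, below the 49265 of P522. Their mean log2 level was highest in P11, at 9.71 against 9.65 in P338 and 8.84 in P524. Whether macrophage content had a part in the Il1b level of P11 was not tested. Il1r1, the signalling receptor, was above background on all arrays with preparation means of 6.01 to 6.14 that the test did not call (adjusted p = 0.725).

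Ccl5 (RANTES), a T cell and monocyte chemoattractant, lay near background. Its values ran from 5.96 to 6.55, with detection on 12 arrays and, at a stricter background p of 0.01, on 11. It measured 6.42, 6.48 and 6.03 in P11, P393 and P530 with vehicle and 6.28, 6.46 and 5.96 with PDGF-B, and 6.55, 6.33 and 6.02 in P338, P522 and P524 with vehicle and 6.40, 6.29 and 6.13 with PDGF-B. P530 and P524 were lowest, at means of 5.99 and 6.07, and the other 4 were 6.31 to 6.47 (adjusted p = 0.00147). Its PDGF-B differences, -0.07 ± 0.17 in wild type and -0.03 ± 0.17 in knockout, had the narrowest 95% intervals of the 9, inside -0.46 to 0.36. Since its level lay near background, these narrow intervals do not bound a change in its transcript.

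The wider pathway was described with lists chosen with results of these data known. None of their genes was called by PDGF-B or genotype. Between preparations of one genotype, where 44.6% of all genes were called, the test called 6 of 10 tested receptors and decoys, 15 of 22 other chemokines, 13 of 21 other cytokines, 13 of 17 NF-κB and C/EBP genes and 15 of 19 genes of Toll-like and interleukin-1 signalling. Among the receptor genes Ccr1, Ccr2, Cxcr1, Cxcr2 and Ackr3 were at background, while Cxcr4, Il6ra, Il6st, Csf1r, Il1r1 and Il1rap were above it on all arrays. Macrophage genes were part of this pattern: 14 of the 16 tested macrophage markers were called too.

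Among other chemokines, the 4 with the smallest p were Ccl6, Ccl9, Pf4 and Ccl8. Ccl6 and Ccl9, myeloid chemokines, were highest in P393 (9.61 and 12.02) and P338 (9.48 and 11.86), 1 preparation of each genotype. Pf4, a platelet and macrophage chemokine, measured 11.44 in P11 and 9.06 to 9.67 in the others, the same preparation that was highest for Cxcl1, Cxcl2 and Il1b. Ccl8, another monocyte chemoattractant of the Ccl2 cluster, measured 9.07 in P522 and 6.06 to 7.43 in the others. Ccl11 was also highest in P522 (7.61 against 5.96 to 6.13), the preparation with the lowest mesothelial sum. The Ccl2 mean was highest there too, as was that of Ccl7 with its main probe but not with its second. In the main fit the preparation test called neither Ccl2 nor Ccl7. Whether cell makeup had a part in these levels was not tested.

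Of the other cytokines, Il1rn, Ctf1, Osm and Il16 had the smallest p. Il1rn, the interleukin-1 receptor antagonist, ran from 6.42 in P524 to 7.92 in P393, and was 7.22 in P11, where Il1b was highest. Ctf1, an Il6-family cytokine, was highest in P524 (8.25) and lowest in P522 (6.41), and Osm, another, was 6.67 in P524 and 7.23 to 7.73 elsewhere. Among NF-κB genes Nfkbie, Relb, Nfkbia and Nfkbib led, each lowest in P524 and higher in P11 and P522 than in the other 4. Casp1, Tlr1, Cd14 and Myd88 led the Toll-like and interleukin-1 list, and all of them were lowest in P524, as was the macrophage sum. Casp1, the protease that matures Il1b, measured 9.98 there and 10.65 to 11.11 in the others.

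For each gene the 3 genes most like it over the 6 preparation means were found among all genes tested, as a description with no test. Cxcl1 was followed by Cyp4f39, Dok2 and Lpar6 (Pearson r of 0.99 to 1, Spearman rho of 1 for each). Dok2, an adaptor of haematopoietic cells, ran from 8.08 to 9.09. Il6 was followed by Grk5, Cald1 and Ankrd1 (r of 0.97 to 0.99), and Cald1, encoding the actin-binding caldesmon, ran from 8.63 to 10.02. Il1b was followed by Trpm7, Vamp8 and Rap1gap, Cxcl2 by Sun2, Ranbp3l and Siah3, and Csf1 by Ltbr, Olfr1031 and Kcns1. Cxcl12 was followed by Polb, Ankrd23 and Postn, Ccl2 by Ctbs, Dnm1 and Pacsin3, Ccl7 by Vcpkmt, Fxr2 and Drc1, and Ccl5 by Ankrd13a, Ap2b1 and Helz. With 6 points and 13617 genes an r of 0.98 or more was found for each of the 9, so these values describe likeness in 6 preparations only.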

How the data were processed

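Arrays were grouped by genotype and ligand from the labels, 3 in each of 4 groups. The authors deposited probe intensity before normalization, on a linear scale, and a second table of normalized intensity, also linear and not centred, with column medians of 90.9 to 91. Its normalization and the scanner software are not given in the sources used here. Detection p-values were not among the columns used here and the design gave no substitute, so detection was estimated by mirroring each array's values below their mode. Probes with p under 0.05 on at least 3 arrays were kept (27132 of 45281).

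From the deposited intensities, log2 values were made in limma 3.58.1 (R 4.3.3, statmod 1.5.0) after normexp background correction with an offset of 50 and quantile normalization. The annotation gave 1 symbol to 34885 probes, several to 18 and listed none for 10378. Each of 13617 genes was represented by its brightest kept probe. Group means were fitted with lmFit and eBayes to all arrays, leaving 8 residual degrees of freedom, and p-values were adjusted by Benjamini-Hochberg over all genes. The F test between preparations came from a fit with preparation and ligand, which left 4.

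Members and gene lists were chosen with earlier results of these data known. Named genes are all members, up to 4 genes with the smallest p among those called in a comparison for each list, known receptors, markers called or at background, and the 3 genes most like each member. To check the pairing, deviations from group means were correlated across genes: arrays sharing a code gave r = 0.58 to 0.93, and every array was closest to its own partner. The codes, which come from the titles, were therefore treated as pairs in the changes within preparations, the blocked fits and the F test. The main fit of group means does not pair the arrays. Alternatives changed the background, scaling, filter, probe, prior, array weights, block, and the preparations or arrays left out. The fits were tested on simulated data first.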

Additional observations from a re-analysis of the deposited data

How the results depend on the processing

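For the ligand comparisons, limma called 0 genes and 0 of the 9 under all alternatives except when the preparation was used as a replicate block and 1 preparation was left out, an alternative added after seeing the data. The block on its own, the fixed and the random one, changed no call: it gave 0 genes for each ligand comparison, with 641 at an unadjusted p under 0.05 in wild type, 846 in knockout, 861 averaged and 611 for the genotype dependence, against 85, 145, 127 and 87 without it. With the block and without P11, 149 genes were called in wild type, 22 in knockout with 1 of the 9 (Csf1), and 226 averaged with 2 of the 9 (Csf1 and Ccl7). Without P338, the block called 1 gene in knockout. The lowest count over the preparations left out was 0 for each of these. A fixed block was not run for the genotype comparisons, since each preparation has 1 genotype.

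Genes called between genotypes were few in each setting. Without PDGF-B the count was 1, and 2 with no background correction, the authors' normalized table, the mean of probes, the intensity trend, array weights or the random block (correlation 0.62), and 0 to 3 with 1 preparation or array left out. With PDGF-B it was 2, and 0 with median scaling or only the groups compared, 1 with probes detected on all arrays, and 0 to 3 with 1 left out. None was one of the 9. Between preparations 6069 genes were called, 1657 with wild-type arrays only, 3667 without P524 and up to 6789 without P11, and of the 9 genes 6 to 9. Ccl2 was called in 4 of 16 alternatives, Ccl7 in 5 and Il6 in 6, both Ccl2 and Ccl7 without P11 (adjusted p = 0.0011 and 0.0013) or without P393 (0.0153 and 0.0113), while the other 6 were called in all 16. The cause was not tested.

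Of 1746 recomputed differences of single genes, 3 passed the threshold, those given above for Csf1 and Ccl7, and the other 1743 moved by less than the spread between replicates. In 41 of 54 pairs of gene and comparison the sign turned in at least 1 alternative, and no called value was among them. Another probe of Ccl7, Cxcl2 or Cxcl12 moved no difference by more than that spread.

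Signal over background limits Ccl5 most, which was detected on 11 of 12 arrays at a background p of 0.01. The 3 preparations a genotype limit every genotype comparison, and 1 array per condition and preparation leaves no estimate of array error. Bulk RNA does not say which cells made a factor, and secreted protein was not measured.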
